A study of Mus musculus with 9 samples.

Results

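A family of short genomic stretches was examined that share 1 arrangement of CpGs: 5 neighbouring CpGs separated by 21, 12, 45 and 25 bp, or the same distances in mirror order. Among 1342457 CpGs with at least 5 calls in 5 or more of the 9 libraries, 1594 runs of 5 neighbours had this spacing. Of these, 1499 also had at least 10 calls over the run in each of 8 samples and are called copies here. They stand among 649956 overlapping runs of 5 neighbouring CpGs that span at most 300 bp and passed the same minimum. The spacing came to notice because it recurred among sequence that was less methylated in embryos than in fibroblasts, so the family was chosen by its measured difference between these stages. That difference is given as a description, without a test.

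The assay was reduced representation bisulfite sequencing. DNA is cut by MspI at CCGG, and size-selected fragments are sequenced after bisulfite has turned unmethylated cytosines into uracil. The donor cells (label TT) were fibroblasts from tail tips of adult males, grown in culture to confluence. The embryos (label NTZy14, called NT embryos below) were made by moving such a fibroblast nucleus into an enucleated C57/B6 oocyte and activating it. Both stages held 2 samples of strain BDF1-CAST (numbers 1 and 2) and 2 of strain X1 (numbers 3 and 4), and fibroblast sample 1 is the sum of a library and its resequencing. The sources used here give neither the meaning of the digits in NTZy14 nor the cross or line behind X1, and do not say how many embryos entered a library or whether samples came from separate animals.

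In mammals a methyl group on the cytosine of CpG is copied to the new DNA strand at each division and is usually dense over repeated sequence. After fertilization much of it is removed from the gamete genomes, and in nuclear transfer a somatic nucleus meets the same oocyte. Repeats differ in how much they lose, and a group of near-identical copies can be recognised in bisulfite data by the spacing of its CpGs. The repeat class of this family is not assigned here, because neither a genome nor a repeat annotation of build mm9, on which the positions lie, was used, and no sequence is printed.

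The copies were methylated at most of their CpG calls in every fibroblast sample. The level of a run is the methylated share of all calls over its 5 CpGs, and the mean over the 1499 copies was 83.9%, 81.7%, 86.1% and 85.3% in fibroblast samples 1 to 4. In NT embryo samples 1 to 4 it was 54.3%, 59.5%, 80.4% and 76.7%. All 4 embryo means lay below all 4 fibroblast means, and the BDF1-CAST embryos lay lowest. The stage means were 84.3% ± 1.90 (SD, n = 4) and 67.7% ± 12.8 (SD, n = 4), a difference of -16.5 points. Between samples of the same number the difference was -29.6, -22.2, -5.63 and -8.63 points.

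**Figure D1:**
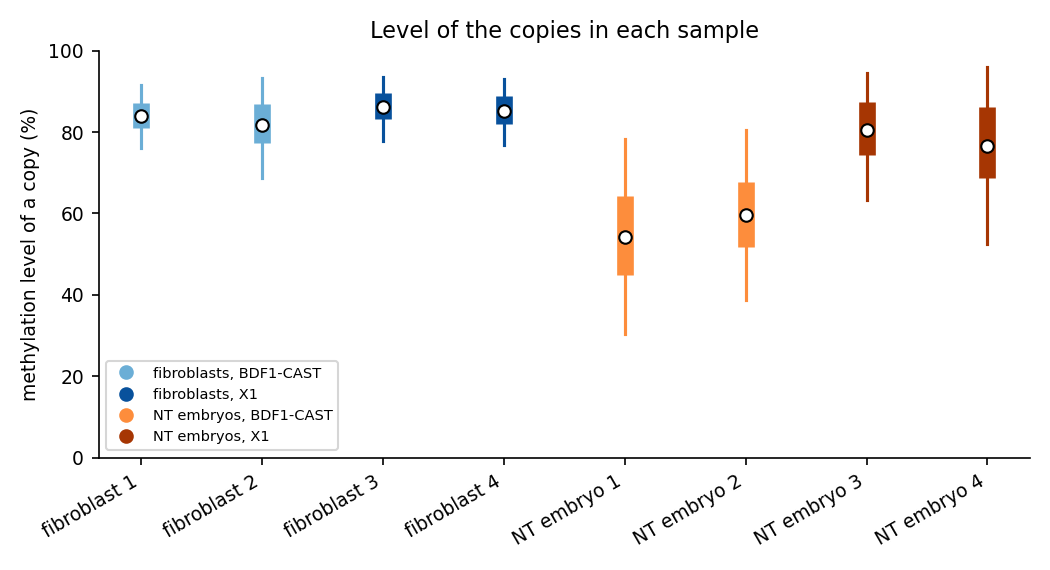
Methylation level of the 1499 copies in each of the 8 samples (vertical axis, percent of calls). The open circle is the mean over copies, the thick bar spans the middle 50% of copies and the thin line the 5th to the 95th percentile. The fibroblast means sit between 81.7% and 86.1%, the X1 embryo means at 80.4% and 76.7%, and the BDF1-CAST embryo means at 54.3% and 59.5%.

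Averaged over each stage, 1485 copies were lower in NT embryos and 14 were higher. By strain, 1487 copies were lower in BDF1-CAST embryos and 1186 in X1 embryos. In 689 copies (46%) each embryo sample lay below the fibroblast sample of the same number. The family was chosen by this contrast, and these counts have no share of all runs beside them. The median difference of a copy was -16.4 points, the middle 50% lay between -21 and -11.7 points, and the range was -39.2 to 3.25 points. Copies at 80% or more made up 81.9%, 63.4%, 89.5% and 85.4% of the family in the fibroblast samples. In the embryos they made up 4.07% and 5.60% in BDF1-CAST and 55.0% and 44.5% in X1. Copies under 50% made up 36.4% and 19.5% in the BDF1-CAST embryos and 0.334% and 3.20% in the X1 embryos, and at most 1 copy was that low in a fibroblast sample. Loss was mostly partial: 12 copies and 1 copy fell below 20% in the BDF1-CAST embryos and 0 in the X1 embryos.

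In a quasi-binomial model across all 649956 runs, with stage and strain as terms, 68 copies (4.54%) passed an adjusted p under 0.05 with at least 20 points of difference. All 68 were lower in NT embryos. Of all runs, 3.01% passed in that direction and 0.0837% as higher, and nothing is read from this count, since the stage contrast chose the family. It moved with each sample left out: it was 0, 7, 12 and 22 without fibroblast samples 1 to 4 in turn, or 0%, 0.467%, 0.801% and 1.47% of copies beside 1.14%, 1.92%, 1.81% and 2.08% of all runs. Without NT embryo samples 1 to 4 it was 14, 12, 124 and 30, or 0.934%, 0.801%, 8.27% and 2% beside 2.13%, 2.11%, 3.77% and 2.69%. The share of copies was thus below that of all runs in 7 of these 8 fits. These shares do not compare like with like. Of the 649956 runs, 155309 stood at 60% or more in fibroblasts, and a run under 20% cannot fall by 20 points. Copies were also thinner than the runs at 60% or more. Their median calls in NT embryo samples 1 to 4 were 28, 32, 33 and 22, against 72, 69, 72 and 51. The share called among runs at 60% or more is not given here.

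Depth set the limits for single copies. A run held a median of 82, 36, 70 and 70 calls in the fibroblast samples and 28, 32, 33 and 22 in the NT embryos. The SD between copies was 4.80, 7.60, 4.92 and 5.01 points in fibroblasts, against 5.34, 8.42, 5.45 and 5.55 points from counting error alone if places 2 and 3, and places 4 and 5, each come from the same reads. Those neighbours did have the same number of calls in 86.5% and 85.0% of copies and samples. In embryos the SD between copies was 14.3, 12.6, 9.61 and 13.2 points, against 12.1, 11.4, 9.04 and 11.5 points from counting. If every CpG call were independent, counting would give 4.04, 6.51, 4.13 and 4.21 points in fibroblasts and 9.53, 8.94, 6.97 and 9.08 points in embryos. The spread between copies was thus between these values in each fibroblast sample and above both in each embryo sample.

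The levels of single copies correlated little between samples. Over the 1499 copies, the Pearson correlation of their levels lay between 0.0846 and 0.160 for pairs of fibroblast samples, between 0.00848 and 0.0907 for pairs of embryo samples and between 0.0363 and 0.103 across stages. The number of calls of a copy was better shared, at 0.0861 to 0.501. These values are descriptions across copies, which are not replicates. Since counting error alone could give most of the spread between copies, low correlations do not show whether a copy has a level of its own. For the 257 pairs of copies that lie 1 repeat unit apart (below), the correlation of levels within a sample ranged from -0.0685 to 0.109. No source used here says how reads that match several copies were treated, so calls listed at 1 copy may come from another.

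The copies with the largest falls show what a single run looked like, among those with at least 20 calls in every sample. The run at chr4:77625312-77625415 (mm9) held 82.3%, 78.1%, 89.3% and 90.8% in the fibroblast samples and 26.2%, 39.1%, 87.0% and 34.2% in the NT embryos. Its embryo levels did not follow strain, as X1 sample 3 lay within the fibroblast range and X1 sample 4 did not. At chr14:80235466-80235569 the levels were 81.7%, 86.8%, 85.5% and 84.7%, and then 50%, 29.6%, 60.7% and 48.5%. In this copy every embryo sample lay below every fibroblast sample. The run at chr11:23740776-23740879 fell from 91.1%, 90.9%, 79.2% and 88.9% to 43.8%, 33.3%, 68.2% and 57.1%, and that at chr8:53391365-53391468, in mirror order, from 79.8%, 83.8%, 86.6% and 87.7% to 34.5%, 47.2%, 66.7% and 44.4%. The mean differences of these 4 copies were -38.5, -37.5, -36.9 and -36.2 points, on 21 to 96 calls a sample.

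At the other end, 2 of the 4 copies with the smallest falls rest mainly on 1 CpG. The runs at chrX:89088782-89088885 and chrX:89089418-89089521 differed by 3.25 and 0.982 points between stages, with embryo levels of 85.8%, 84.6%, 89.1% and 87.1% in the first and 88.4%, 83.3%, 89.9% and 83.0% in the second. They belong to 5 copies, all on X, that had 2.36 to 2.88 times as many calls in the embryos as in the fibroblasts, while the others had a median of 0.452 and at most 0.777 times. The excess lay at place 3, with 196 to 543 calls per copy in an embryo sample against 1 to 10 at place 2. Summed over the 5 copies, place 3 stood at 87.5% ± 1.53 in fibroblasts and 87.4% ± 2.12 in NT embryos (SD, n = 4 each). Their other 4 places together stood at 81.6% ± 0.866 and 67.9% ± 13.4, a difference of -25.6 points in BDF1-CAST samples and -1.65 in X1 samples, on 93 to 127 calls in an embryo sample. What gave place 3 its calls was not tested. The copy with the highest minimum of calls, chrX:46920334-46920437 (138 to 561 calls), is among these 5 and changed by 0.18 points. Without them the family's difference was -16.6 points.

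**Figure D2:**
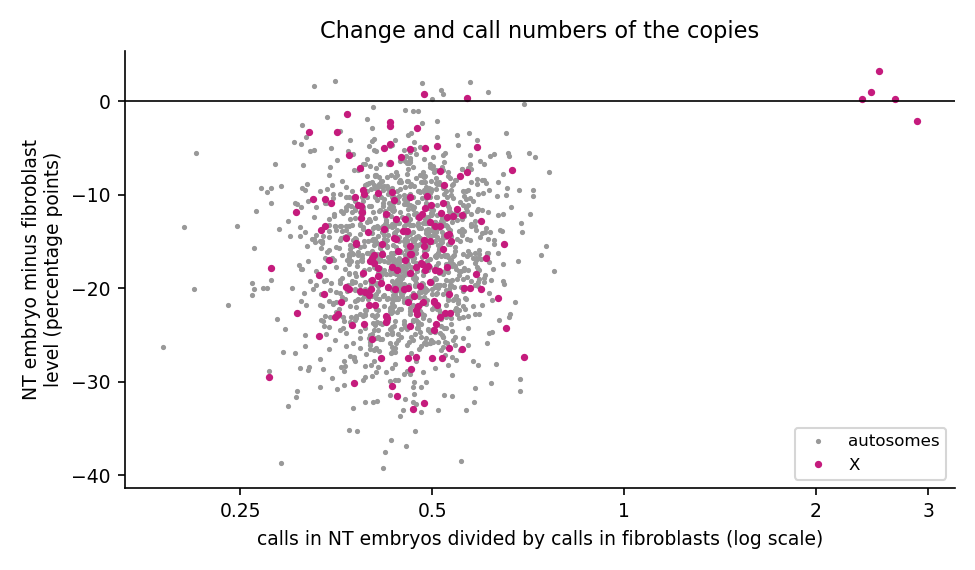
Each point is 1 copy, placed by its calls in the 4 NT embryo samples divided by those in the 4 fibroblast samples (horizontal, log scale) and by its embryo minus fibroblast level in percentage points (vertical). The 5 copies at ratios of 2.36 to 2.88 are all on X, differ by -2.09 to 3.25 points and carry most of their calls at a single CpG.

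The other small differences came from runs of usual depth. At chr16:70947738-70947841 the fibroblast levels were 83.8%, 84.4%, 81.1% and 88.6% and the embryo levels 83.3%, 83.3%, 93.3% and 80.8%, on 26 to 70 calls. At chr6:11782817-11782920 the values were 82.5%, 58.8%, 78.8% and 79.5%, and then 61.5%, 59.3%, 90.3% and 93.3%, so that the mean difference of 1.21 points joined a change of -10.2 points in BDF1-CAST with one of 12.7 points in X1. A further copy, chr8:52432535-52432638, singled out after its values were seen, had 2295 to 4131 calls in each BDF1-CAST sample and 41 to 147 in each X1 sample, nearly all of the excess at places 1 to 3. Its levels were 85.7% and 82.8% in BDF1-CAST fibroblasts and 59.3% and 65.5% in BDF1-CAST embryos. In X1 it held 77.4% and 80.3%, and then 83.0% and 80.5%.

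The minimum of 10 calls removed 95 runs, 77 of them short in NT embryo sample 4. Just inside it, the runs at chr6:6939712-6939815 and chr8:60867269-60867372 differed by -10.4 and -10.9 points, and just outside it those at chr7:14673271-14673374 and chr9:51378935-51379038 by -23.4 and -13.6 points. Summed over the 95 short runs, the levels were 83.2%, 79.3%, 84.5% and 84.1% in fibroblasts and 52.3%, 57.9%, 78.5% and 76.0% in NT embryos.

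The 5 places of the run, counted along its direction, differed in level within every sample. In fibroblasts the mean over copies was 85.1% ± 1.13 at place 1, 86.5% ± 1.95 at place 2, 89.8% ± 2.44 at place 3, 88.4% ± 3.52 at place 4 and 69.9% ± 2.09 at place 5 (SD, n = 4). Place 5 was the low one in all 8 samples. Its level differed from the mean of the other 4 places by -16.2 points on average (exact sign-flip test over 8 samples, two-sided, p = 0.00781, the smallest this test can give, and 0.00977 after Benjamini-Hochberg adjustment over 5 places). Places 1, 2 and 3 each lay above the mean of the other 4 in 8 of 8 samples. The differences were 6.27, 5.57 and 5.32 points (adjusted p = 0.00977 each, same exact test). That mean includes the low place 5, so these tests are not independent of it. In the fibroblast means place 1 lay below places 2, 3 and 4. It was above the mean of the other 4 by only 1.4 points there, against 11.1 points in NT embryos. Place 4 changed sides between the stages. It was above the mean of the others in the 4 fibroblast samples, by 5.61 points. In the 4 embryo samples it was below that mean, at -7.57 points (over all 8 samples exact sign-flip p = 0.727).

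In NT embryos the levels stepped down along the run. They were 73.4% ± 10.7, 70.8% ± 12.3, 67.1% ± 13.8, 58.4% ± 16.2 and 52.7% ± 13.3 at places 1 to 5 (SD, n = 4). The differences from fibroblasts were -11.7, -15.7, -22.7, -30 and -17.2 points, largest at place 4. In the BDF1-CAST samples they were -20, -24.8, -32.4, -40.0 and -26.3 points, and in X1 -3.32, -6.65, -13, -19.9 and -8.03 points. The order of the places was the same in both strains. As a share of the fibroblast level, BDF1-CAST embryos held 76.2%, 70.9%, 63.2%, 53.6% and 61.7%, and X1 embryos 96.1%, 92.4%, 85.8%, 78.0% and 88.7%.

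Calls were fewest at places 4 and 5 of the run, most markedly in embryos. A copy had 21.2, 11.9, 12.3, 11.5 and 11.4 calls at places 1 to 5 in fibroblasts and 11.7, 6.07, 7.38, 3.56 and 3.55 in NT embryos, so that places 4 and 5 kept 31.1% of the fibroblast number and places 1 to 3 between 50.9% and 60%. The 5 X copies raise place 3: without them it had 12 and 6.20 calls, or 51.6%. NT embryo sample 4 was the thinnest, with 1.85 calls a copy at places 4 and 5. Using only copies with at least 5 calls at that place in that sample, a choice made after seeing the data, the differences were -11.5, -15.7, -22.6, -30.4 and -17.6 points, although only 72 copies then remained at place 4 in the thinnest sample. Because a run's level weights its places by calls, the embryo means lean toward places 1 to 3. With the 5 places weighted equally the family differed by -19.4 points in place of -16.5.

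**Figure D3:**
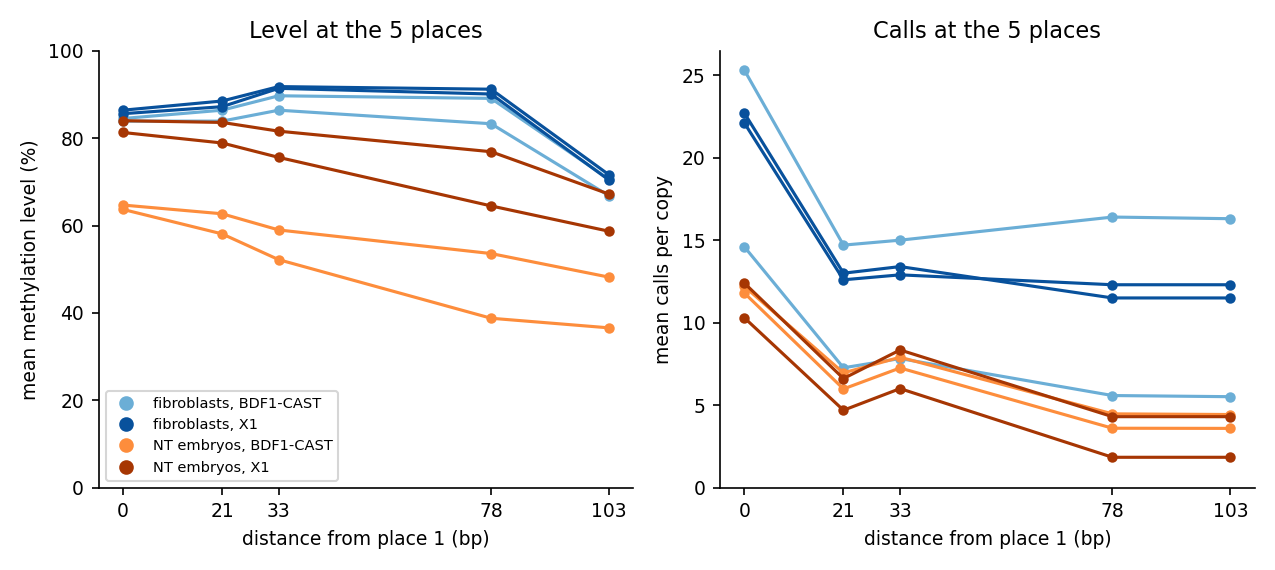
Left, mean methylation level over copies at each of the 5 CpG places, by distance from place 1 in bp, with 1 line per sample. Right, mean calls per copy at the same places. Place 5 is the lowest in all 8 samples, and place 4 falls from 88.4% in fibroblasts to 58.4% in NT embryos, where it has 3.56 calls a copy.

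The run is a window of a longer unit that repeats every 212 bp. Of 418 pairs of neighbouring copies within 1000 bp, 401 (95.9%) lay at whole multiples of 212 bp from each other: 257 at 212 bp, 84 at 424 bp, 45 at 636 bp and 15 at 848 bp. None of the 418 pairs had opposite orientation. Joining copies within 1000 bp gave 1081 groups, of which 767 held a single copy, 314 held 2 or more, and the largest held 7. Left to right runs numbered 723 and mirror runs 776, and their mean differences were -16.8 and -16.3 points.

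Within 500 bp on either side of the copies lay 15273 listed CpGs outside the runs. Of these, 14315 (93.7%) fell on 1 of 10 recurring places of the unit, at 0, 21, 33, 78, 103, 185, 188, 194, 195 and 208 bp from place 1. Neighbouring units that are not copies had levels like those of the run at places 4 and 5 and less alike at places 2 and 3. There the CpGs at 78 bp, which matches place 4, went from 87.1% ± 3.63 in fibroblasts to 57.2% ± 15.8 in NT embryos, and those at 103 bp, which matches place 5, from 71.2% ± 1.48 to 52.3% ± 13.5 (SD, n = 4). CpGs at 0, 21 and 33 bp went from 83.0%, 85.5% and 89.3% to 71.9%, 74.6% and 73.1%. Their differences were -11, -10.8 and -16.2 points. Pooled over calls in the same way, the copies differed by -11.3, -15.5 and -19.5 points, so places 2 and 3 differed less between stages in the neighbouring units. The values of -11.7, -15.7 and -22.7 points given above weight each copy equally. At 33 bp embryo calls were 72.6% of the fibroblast number in the neighbouring units. In the copies they were 60%, or 51.6% without the 5 X copies. In these units place 5 differed from the others by -15.9 points and was below them in 8 of 8 samples (exact sign-flip test over 8 samples, p = 0.00781, adjusted p = 0.0130). Places 2 and 3 each lay above the mean of the others, which includes place 5, in 8 of 8 samples (adjusted p = 0.0130 each, same exact test). Place 1 lay above that mean in 5 of 8 (exact test, adjusted p = 0.117), and in 8 of 8 in the copies. No test compared the neighbouring units with the copies, and their stage differences at place 1, pooled over calls, were alike, at -11 and -11.3 points.

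Beyond the run lay the most methylated CpGs of the unit. Those at 185 and 195 bp stood at 94.1% and 94.5% in fibroblasts and at 79.2% and 80% in NT embryos, and those at 188, 194 and 208 bp changed by -11.7, -10.9 and -11.3 points. The difference at 78 bp, of -30 points, was therefore 2 to 3 times that at the 5 places beyond the run, where calls in embryos were 57.3% to 64.0% of those in fibroblasts against 31.6% at 78 bp.

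**Figure D4:**
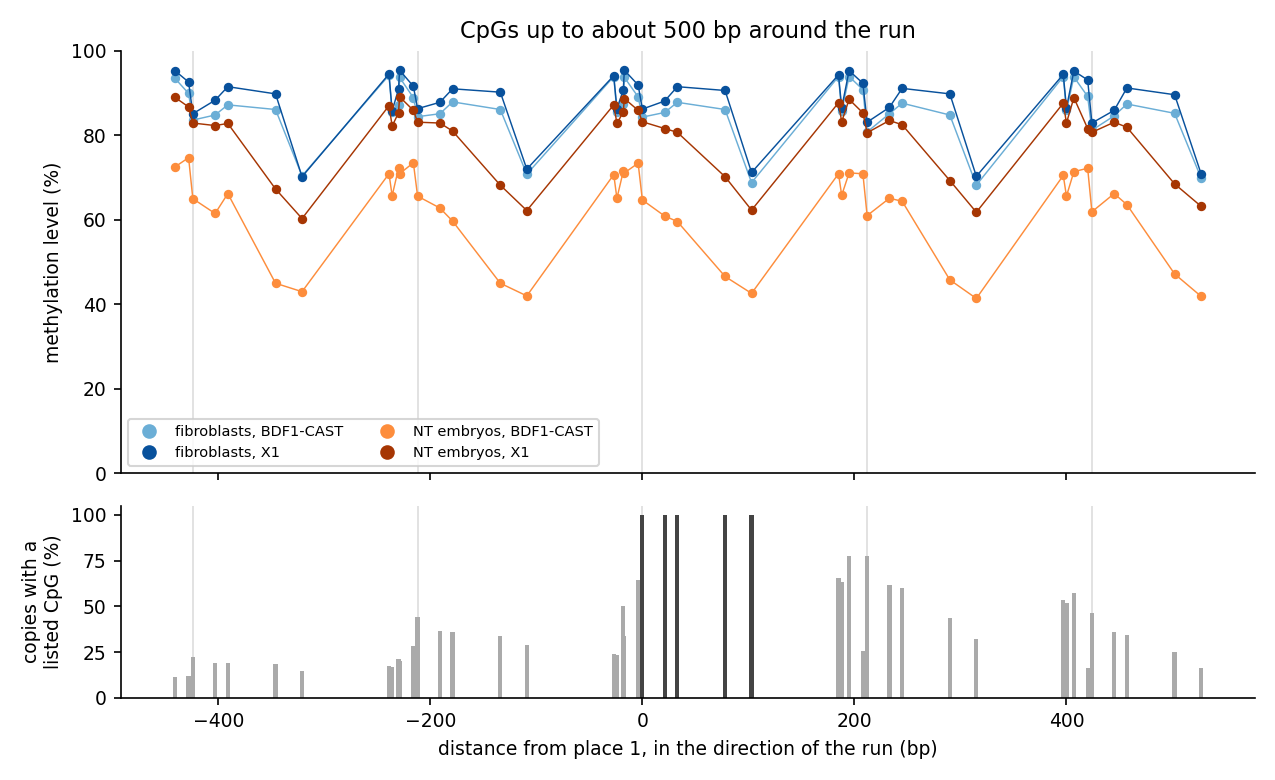
Top, methylation level of CpGs by distance from place 1 in bp, along the direction of the run, as means of the 2 samples of each strain and stage. Bottom, percent of copies with a listed CpG at that distance, with the 5 places of the run in dark grey. Vertical lines mark steps of 212 bp, at which the profile recurs. In NT embryos the low points are the places that match 4 and 5, and in fibroblasts only the place that matches 5.

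Over 2177 flanking CpGs with at least 10 calls in every sample, fibroblasts stood at 91.3% ± 0.894 and NT embryos at 77.6% ± 9.82, a difference of -13.7 points (-21.3 in BDF1-CAST and -6.13 in X1). This set holds few CpGs at places 4 and 5, which seldom reached 10 calls in the embryos. The 733 CpGs before the run changed by -13.9 points and the 1444 after it by -13.6 points. The 152 CpGs at none of the 10 places started lower, at 79.8% ± 2.19, and stood at 65.4% ± 7.26 in NT embryos, a difference of -14.4 points. With a minimum of 5 calls there were 402 such CpGs, and they changed by -14.7 points. The lower level was thus not limited to CpGs on the repeating places.

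Where a copy lay in its group made little difference to its stage change but more to its level. Copies with a unit listed after only stood at 85.5% in fibroblasts and 69.2% in NT embryos. In every sample they lay above those with 1 before only (83.2% and 65.7%) and those with units on both sides (82.8% and 66%). Copies with neither stood at 84.4% and 69.1%. Copies with a unit listed on neither side (141) changed by -15.2 points, those with 1 before only (199) by -17.5, with 1 after only (699) by -16.3 and with units on both sides (460) by -16.8 points. Single copies, pairs and groups of 3 or more changed by -16.4, -16.7 and -16.8 points. Runs that lacked a listed CpG at place 2 but kept the other distances (67 with enough calls) changed by -17.7 points, and the 34 that lacked place 4 by -14.4 points.

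Copies were densest on X, which carried 175 of them, or 33.7 per 10000 listed CpGs, against 4.93 to 15.7 on the autosomes. X copies went from 84.4% ± 2.04 to 68.4% ± 13.7 and autosomal copies from 84.2% ± 1.88 to 67.6% ± 12.6 (SD, n = 4), differences of -16 and -16.6 points. Between X and autosomes, the levels within a sample differed by -0.380 to 1.98 points. Other runs at 60% or more in fibroblasts changed by -6.50 points on X and by -11.1 points on the autosomes.

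The strains separated in the embryos and hardly in the fibroblasts. X1 minus BDF1-CAST was 2.84 points in fibroblasts (85.7% against 82.8%) and 21.6 points in NT embryos (78.5% against 56.9%). Averaged over the stages X1 was higher by 12.2 points, with both X1 samples above both BDF1-CAST samples in each stage (exact permutation of strain within stage, 36 assignments, two-sided, p = 0.0556, the smallest this design allows). Embryos stood -25.9 points from fibroblasts in BDF1-CAST and -7.13 from them in X1, a gap of 18.8 points that was not tested on the family's mean. The family was chosen by its fall, which was larger in BDF1-CAST, and such a choice can widen this gap. The family took 0.164% and 0.155% of library calls in BDF1-CAST fibroblasts and 0.306% and 0.292% in X1 fibroblasts. In NT embryo samples 1 to 4 it took 0.159%, 0.201%, 0.198% and 0.147%. Each strain has its own libraries, so strain and library cannot be told apart.

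Copy by copy, 1371 of 1499 (91.5%) fell more in BDF1-CAST than in X1, compared with 74.6% of the 155309 runs at 60% or more in fibroblasts. Both BDF1-CAST embryos lay below both X1 embryos in 1061 copies (70.8%), compared with 49.2% of those runs. In fibroblasts the same order held in 447 copies (29.8%), compared with 29.9% of those runs. Among runs with the spacings 3-7-17-21 and 3-7-13-4, which also lie lower in the embryos (below), it held in 78.2% and 73.2% in the embryos and in 21.5% and 23.3% in the fibroblasts. These shares describe copies that share their samples, and were not tested. The family was chosen by its lower level in these embryos, and the runs at 60% or more were not. The shares in embryos therefore do not compare like with like.

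No single copy passed the strain test. In the quasi-binomial model 0 copies were called, compared with 0.128% of all runs, and the smallest adjusted p was 0.132. At an unadjusted p under 0.05 there were 241 copies (16.1%), all higher in X1, beside 13.1% of all runs and 14.9% of runs at 60% or more in fibroblasts, a share near the background. The direction has no share of runs beside it. Runs at 60% or more also stood higher in X1, by 9.21 points in NT embryos. With limma on arcsine square root levels 1 copy (0.0667%) was called, beside 0.0659% of all runs. By that tool 422 copies (28.2%) had an unadjusted p under 0.05, compared with 15.1% of all runs, so how far the unadjusted share lies from that of all runs depends on the tool. The product of stage and strain, added after the strain values were seen, called 0 copies and 0% of all runs. At an unadjusted p under 0.05 it held 202 copies (13.5%), compared with 6.11% of all runs and 10.6% of runs at 60% or more in fibroblasts, and in all 202 the level was relatively higher in X1 embryos. No share of runs is given beside that direction, and the choice of the family by its fall bears on this term. With limma 0 copies passed the adjusted test of this term and 377 copies (25.2%) an unadjusted p under 0.05, compared with 10.8% of all runs. For neither term is a limma share given among runs at 60% or more, so the limma shares do not compare like with like.

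Recurring CpG spacings did not all lose methylation. Runs with gaps of 8, 2, 16 and 8 bp (1227 with enough calls) stood at 87.8% ± 0.780 in fibroblasts and 88.1% ± 2.73 in NT embryos, and runs with gaps of 7, 5, 4 and 29 bp (3322) at 87.8% ± 1.15 and 87.1% ± 3.39 (SD, n = 4). They started 3 to 4 points above the 21-12-45-25 family and changed by 0.347 and -0.712 points where it changed by -16.5. All 155309 runs at 60% or more in fibroblasts started at 84.3% ± 1.33, as the family did, and changed by -10.8 points. In X1 the family and these runs changed alike, by -7.13 and -7.10 points, while in BDF1-CAST the family changed by -25.9 and the runs by -14.4 points. The difference between the strains' changes was thus 18.8 points in the family, 7.32 in all such runs, 4.97 in the 8-2-16-8 runs and 4.18 in the 7-5-4-29 runs. It was 17.2 and 15 points in the spacings 3-7-17-21 and 3-7-13-4, described next, so a wide gap was not particular to 21-12-45-25. Those 2 spacings match places of the same 212 bp unit, however. The family was also chosen by its fall and the runs at 60% or more were not, so these gaps do not compare like with like. All NT embryos lay below all fibroblasts in 333 copies (22.2%), compared with 19.1% of the runs at 60% or more.

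The spacings 3-7-17-21 and 3-7-13-4 changed by -13 and -12.7 points, and both match places of the same unit. Its places at 185, 188 and 195 bp, followed by those at 0 and 21 bp of the next unit, have the gaps 3-7-17-21. The places at 185, 188, 195 and 208 bp, followed by that at 0 bp of the next unit, have the gaps 3-7-13-4. Of 1309 runs with the first, 491 (37.5%) lay beside a copy, which is true of 502 copies (33.5%), and of 791 with the second, 251 (31.7%), beside 260 copies (17.3%). They are therefore not separate sets of sequence.

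**Figure D5:**
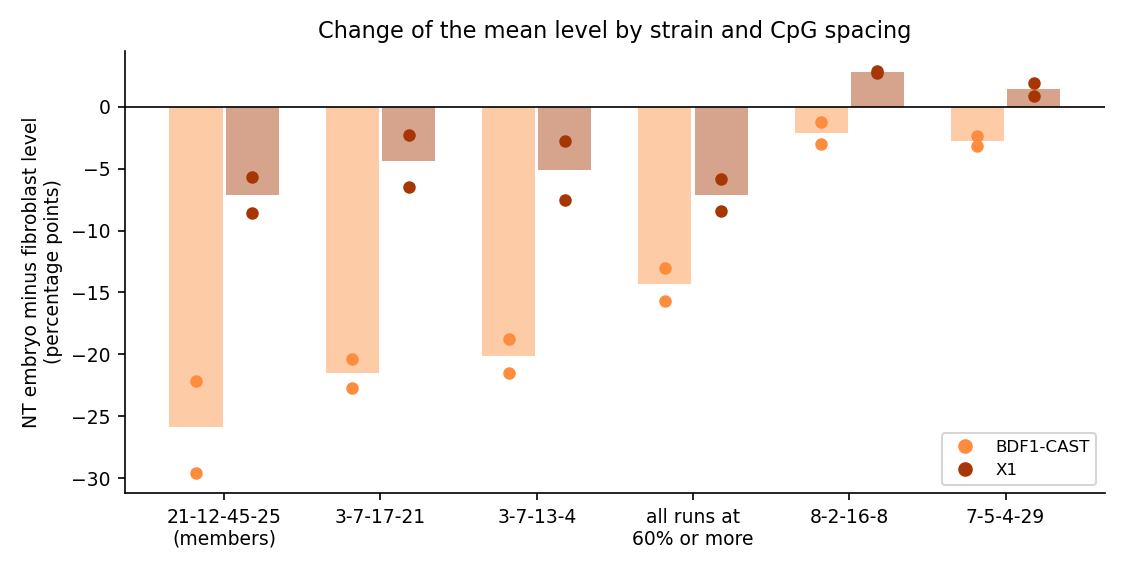
NT embryo minus fibroblast mean level in percentage points, for runs of each CpG spacing and for all runs at 60% or more in fibroblasts. Bars are means of 2 samples of a strain and points are the single samples, each set against the fibroblast sample of the same number. The 21-12-45-25 family reaches -25.9 points in BDF1-CAST and -7.13 in X1, the 8-2-16-8 runs -2.14 and 2.83.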

How the data were processed

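For each of 9 libraries the authors deposited counts of calls and of methylated calls per CpG, per the file headers and the deposited description, and the submitters' processing notes name build mm9. Neither aligner nor methylation caller is given in the sources used here. A deposited tile table with 26 columns of samples was not used. Libraries held 25239364 to 41466097 calls. The number 1a marks a resequencing and was added to sample 1. Reads carry no molecular identifiers, so spreads from counting cover counting error only.

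Runs were found by their gaps. Calls over a run were summed, and all 649956 runs were fitted with a quasi-binomial logistic model (stage and strain), its dispersion moderated with limma 3.58.1 (squeezeVar, R 4.3.3) from runs between 5 and 95% and kept at 1 or above. Benjamini-Hochberg adjustment was over all runs. Called means an adjusted p under 0.05 and at least 20 points. Data for the stage comparison were simulated for 100000 runs, with 50 lowered by each amount. Called were 26% of runs lowered by 20 points, 62% by 30, 88% by 40 and 98% by 50. Of 99800 unchanged runs 0 were called, and 6.06% had an unadjusted p under 0.05 in this model. For the strain comparison that share was 6.4%. The dispersion step was chosen on such data, so these shares are not an independent check of it. No share is given for runs as thin as the copies, or for a fall that differs between strains. The chance of calling a copy is therefore not known from them. Single values used exact permutation or sign-flip tests, in Python 3.11.15 with numpy 2.4.6. Labels do not say whether samples are separate animals, so the spread behind each p-value is that of these samples and may be technical.

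The family, the places, the comparison spacings and the rule for named copies were chosen with earlier results of these data known. The rule names the 4 largest and 4 smallest falls among copies with at least 20 calls in every sample, the copy with the highest minimum of calls, any called between strains, and 2 on each side of the minimum of 10 calls. One chromosome's copies are counted but not named. Alternatives changed call minima, library 1a, covariates, the model and the samples.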

Additional observations from a re-analysis of the deposited data

Results flagged for a closer look

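The run at chr6:11782817-11782920 had 1 fibroblast sample far from the others: sample 2 stood at 58.8%, on 34 calls, and the others between 78.8% and 82.5%. It was the 1 such sample among 36 groups of 4 looked at, of which chance gives about 1 in 20, or 1.8. In the same copy the strains moved in opposite directions, with a gap of 22.9 points between the changes of X1 and BDF1-CAST. This difference was not tested.

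At chrX:46920334-46920437 the level changed by 4.82 points in BDF1-CAST and by -4.46 points in X1, a gap of -9.25 points, opposite in sign to that of the family. Most of its calls lie at place 3, and the difference was not tested.

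Among the comparison spacings, the 8-2-16-8 runs fell in both BDF1-CAST pairs and rose in both X1 pairs, with a gap of 4.97 points, and the 7-5-4-29 runs did so with a gap of 4.18 points. Neither difference was tested.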

How the results depend on the processing

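The family's stage difference of -16.5 points ran from -20.8 to -12 with 1 sample left out, and the strain difference of 12.2 points from 10.9 to 13.5. Both kept their direction under every alternative run, as did the place values and the flanking CpGs. The count of copies called between stages, 68 (4.54%, beside 3.01% of all runs called lower), was 32 with at least 20 calls in each sample (4.47% of 716 copies, beside 2.41%), 25 without library 1a (1.67%, beside 2.60%), 20 without the strain term (1.33%, beside 2.12%), 23 with the dispersion estimated from all runs (1.53%, beside 1.48%, chosen after seeing the data), and 0 to 124 with 1 sample left out. It was 1 with the sample number as a replicate block (0.0667%, beside 1.71%). With at least 5 calls in each sample it was 76 (4.8% of 1584 copies, beside 3.27%), and with limma on arcsine square root levels 59 (3.94%, beside 1.26%). Whether the copies were called more or less often than all runs thus changed with the setting. All runs also include those under 60% in fibroblasts, so these shares do not compare like with like. Samples were not treated as pairs in the main fit. Same-numbered samples correlated at 0.0498 to 0.109 over runs at 60% or more in fibroblasts, and not every sample correlated best with its own number. Correlations this low cannot decide whether the numbers pair the samples. Between strains 0 copies were called, and 1 with limma on arcsine square root levels. Asking for 5 calls in all 9 libraries left 0 copies, and 5 calls at each CpG in every sample also left 0, so neither gives a value for the family. Depth limits single copies, with a median of 22 to 33 calls a run in embryos, and places 4 and 5 most.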
